A study of Mus musculus with 11 samples.

Results

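DNA methylation was examined at 8 genes of the Eph receptor family, namely Ephb1, Ephb2, Ephb3, Ephb4, Ephb6, Epha2, Epha4 and Epha8, out of 34318 genes with a listed C position within 1 kb. The genes were chosen because 4 stretches of Ephb2 were less methylated in Dnmt3a-deleted LSK cells. The knockout against control difference in LSK cells is therefore given as a description, without a test. Positions were taken from 1 kb before to 1 kb after the annotated span of each gene (GRCm38). These windows held 1978 of the 1961722 C positions listed in any library, and 1371 of them were listed in all 10 libraries with a clear genotype.

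Levels came from enhanced reduced representation bisulfite sequencing, which reads CpG cytosines near MspI cut sites. A level is the percent of reads that stayed C, pooled over the positions of a region. All mice were C57BL/6 with both Dnmt3a alleles floxed, and all had been given 5 poly(I:C) injections and had reached 12 months of age. Knockout mice also carried the Mx1-Cre transgene, whose promoter answers to interferon and is active in blood cells and in other tissues, and control mice did not carry it. LSK cells (Lin- Sca1+ cKit+, the marrow fraction with the stem cells) gave 3 knockout libraries (1327, 1333 and 1334) and 3 control libraries (1326, 1330 and 1331). GMP cells (Lin- Sca1- cKit+ CD34+ FcgR+, the granulocyte-macrophage progenitors) gave 2 knockout libraries (178 and 179) and 2 control libraries (346 and 349). A further GMP library, 352, has a Cre-positive title and a Cre-negative genotype entry, so its values stand apart and enter no comparison. Values below are listed in these library orders.

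A set of 5 positions in the Dnmt3a gene itself, on chromosome 12 between 3903653 and 3904031, checked the genotype labels. All 5 were unlisted (under 10 reads) in each knockout LSK library, and all 5 were listed in each control library. In knockout GMP, 4 of the 5 were listed in library 178 and 5 of 5 in library 179, so the libraries labelled knockout GMP retained reads of the segment, and knockout GMP below means the libraries so labelled. In library 352, 0 of the 5 were listed. Coverage summed over the listed C positions was 163.5 to 164.0 M (1e6) in knockout LSK, 157.3 to 181.1 M in control LSK, and 95.4 to 109.7 M over the GMP libraries. A read that covers several positions counts at each of them, so these sums are not numbers of reads. Library 1333 listed 118988 positions found in no other library, so the LSK counts and named differences were also computed without it. Methylation is no measure of expression, and the starts of the granule, B cell and T cell marker genes were not measured, so the sorted cell types could not be checked from them. Starts of stem cell genes were at 0.118 to 0.599% in every library. The starts of 2 erythroid genes averaged 7.34 to 16.0% in knockout LSK libraries and 17.5 to 23.2% in control LSK libraries. They averaged 13.5 to 15.7% in knockout GMP libraries and 20.7 to 27.2% in control GMP libraries, and the part of this difference in the results below was not tested.

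Eph receptors are receptor tyrosine kinases that bind ephrins, ligands held on the surface of neighbouring cells. Class B receptors mainly bind the transmembrane ephrin-B ligands, class A receptors mainly bind the lipid-anchored ephrin-A ligands, and both partner cells can receive a signal on contact. The family is best known for cell repulsion, adhesion and sorting in axon guidance, in vessels and in epithelia. In blood, the ephrin-B2 and EphB4 pair is known from early progenitors and their supporting stroma. DNMT3A, the enzyme deleted here, is a DNA methyltransferase that can act on unmethylated CpG sites.

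The promoters below show where the assay reads the start of Ephb2, of Epha2 and of Ephb3, which are the genes with lower tiles in knockout LSK and the member with the most methylated start. The sequences are RefSeq windows of GRCm38.p6, 300 bases long with 250 bases before the start and 50 after it, printed along the gene's strand. They lie at chr4:136835963-136836262 on the minus strand for Ephb2, chr4:141300971-141301270 on the plus strand for Epha2 and chr16:21204545-21204844 on the plus strand for Ephb3. Capitals mark CpG sites with a C position listed in at least 1 library.
Ephb2: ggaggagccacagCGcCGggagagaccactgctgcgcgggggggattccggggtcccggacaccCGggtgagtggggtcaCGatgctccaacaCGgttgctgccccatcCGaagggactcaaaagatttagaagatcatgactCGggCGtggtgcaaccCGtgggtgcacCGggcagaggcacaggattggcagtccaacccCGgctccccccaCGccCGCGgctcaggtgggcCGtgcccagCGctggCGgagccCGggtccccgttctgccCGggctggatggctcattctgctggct
Epha2: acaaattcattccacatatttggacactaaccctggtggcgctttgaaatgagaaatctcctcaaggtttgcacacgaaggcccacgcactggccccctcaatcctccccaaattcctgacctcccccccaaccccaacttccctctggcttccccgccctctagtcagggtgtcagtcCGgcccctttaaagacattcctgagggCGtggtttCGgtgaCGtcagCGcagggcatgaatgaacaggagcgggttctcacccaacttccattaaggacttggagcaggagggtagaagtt
Ephb3: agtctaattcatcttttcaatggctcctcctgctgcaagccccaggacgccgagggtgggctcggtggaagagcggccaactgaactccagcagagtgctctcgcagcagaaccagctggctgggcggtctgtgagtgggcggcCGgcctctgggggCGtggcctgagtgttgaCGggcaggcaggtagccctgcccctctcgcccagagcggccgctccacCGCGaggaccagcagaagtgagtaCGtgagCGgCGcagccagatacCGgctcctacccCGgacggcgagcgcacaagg
All listed positions of these windows, 25 for Ephb2, 8 for Epha2 and 10 for Ephb3, fell on a CpG of the printed sequence. The Ephb2 window has 24 CpG sites and 8 MspI sites (CCGG, which reads the same on both strands), the Epha2 window 10 and 1, and the Ephb3 window 23 and 3. Of 32817 RefSeq promoter windows of this length, 52.8% hold CCGG, and the median has 7 CpG sites. The Ephb2 window was unmethylated, with 0.188 ± 0.0495% in knockout LSK and 0.101 ± 0.0383% in control LSK (SD, n = 3 each), and 0.0975 ± 0.0547% in knockout GMP and 0.145 ± 0.00952% in control GMP (SD, n = 2 each).

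Ephb2 carried 4 of the 5 member tiles that were called lower in knockout LSK. Ephb2, a receptor for ephrin-B ligands that guides axons and positions cells along the gut crypt, lies on chromosome 4 from 136647536 to 136836326 on the minus strand, with its start at 136836012. The genome was cut into fixed 1000-bp tiles, and a tile with at least 3 C positions in all compared libraries was tested. A call needed an adjusted p under 0.05 and pooled levels at least 20 percentage points apart. Over the 8 genes 5 of 123 tiles (4.07%) were called lower in knockout LSK and 0 higher, against 0.871% of all 107074 tiles called lower, and the choice of the genes used this contrast. A difference between bulk levels can mean fewer methylated cells or less methylation per cell, and these cannot be told apart.

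The largest falls lay close together, 5.51 and 6.51 kb downstream of the start by tile midpoint, within the transcribed span. In the tile at 136829001 to 136830000, levels were 34.8, 17.1 and 21.8% in knockout LSK, against 66.0, 68.8 and 72.1% in control LSK. The knockout libraries averaged 24.6 ± 9.20% and the control libraries 69.0 ± 3.04% (SD, n = 3 each), a difference of -44.3 points. In the adjoining tile at 136830001 to 136831000, levels were 40.7, 30.8 and 29.3% in knockout LSK, against 79.7, 79.6 and 83.1% in control LSK, a difference of -46.9 points. Both tiles were among those that chose the genes, and in both every knockout library lay below every control. Library 1327 was the highest of the knockouts. Both differences were present in the libraries with many listed Y-chromosome positions (1327 against 1326) and in those with few (1333 and 1334 against 1330 and 1331). The first contrast rests on 1327 and 1326 alone, and the part of the Y-chromosome listing in these differences was not tested.

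In GMP both tiles also had lower levels in each library labelled knockout, and neither difference passed the main test. The genes were chosen for their LSK levels, but with earlier results of these data known, so GMP is not independent support. In the tile at 136829001, levels were 43.2 and 66.7% in knockout GMP, against 90.2 and 86.9% in control GMP. The averages were 55.0 ± 16.6% in knockout GMP and 88.6 ± 2.39% in control GMP (SD, n = 2 each), a difference of -32.6 points that did not pass the test (adjusted p = 0.567). In the tile at 136830001, levels were 66.4 and 65.5% in knockout GMP, against 87.5 and 84.4% in control GMP, a difference of -20.1 points (adjusted p = 0.567). The groups did not overlap in either tile, as at 25.9% of all GMP tiles on the lower side. The spread between the knockout libraries was wide in the first and narrow in the second. When the spread between libraries was moderated with a prior from tiles at intermediate levels (5 to 95%), the adjusted p was 0.0347 for the first tile and 0.0401 for the second, and both were called lower. That prior was known from earlier work on these data to give calls in GMP where the main test gave none. Over all alternatives to the main test the adjusted p ran from 1.23e-24 to 0.836 for the first and from 2.58e-22 to 0.836 for the second, the lowest from an exact Fisher test that ignores the spread between libraries. Without library 178 the difference of the first tile was -21.8 points. Library 352 had 32.4% in the first tile and 36.7% in the second.

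The pair of tiles is one run of 9 C positions over 365 bp, from 136829889 to 136830253, split by the tile border. At 9 of the 9 positions every knockout LSK library was below every control LSK library, which held at 5.16% of all positions in LSK. This contrast chose the tiles, so nothing is read from that count. Position means ranged from 18.7 to 41.6% in knockout LSK and from 65.4 to 90.0% in control LSK, and the fall was between 32.8 and 57.8 points. At 8 of the 9 positions both knockout GMP libraries were below both control GMP libraries, which held at 9.79% of all positions in GMP. Position means ranged from 45.7 to 77.8% in knockout GMP and from 74.2 to 95.3% in control GMP. Coverage per position and library was 32 to 297 reads in LSK and 35 to 147 in GMP. Neighbouring positions share reads, so they are not independent of each other. In library 352 these positions were at 11.0 to 51.6%.

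**Figure D1:**
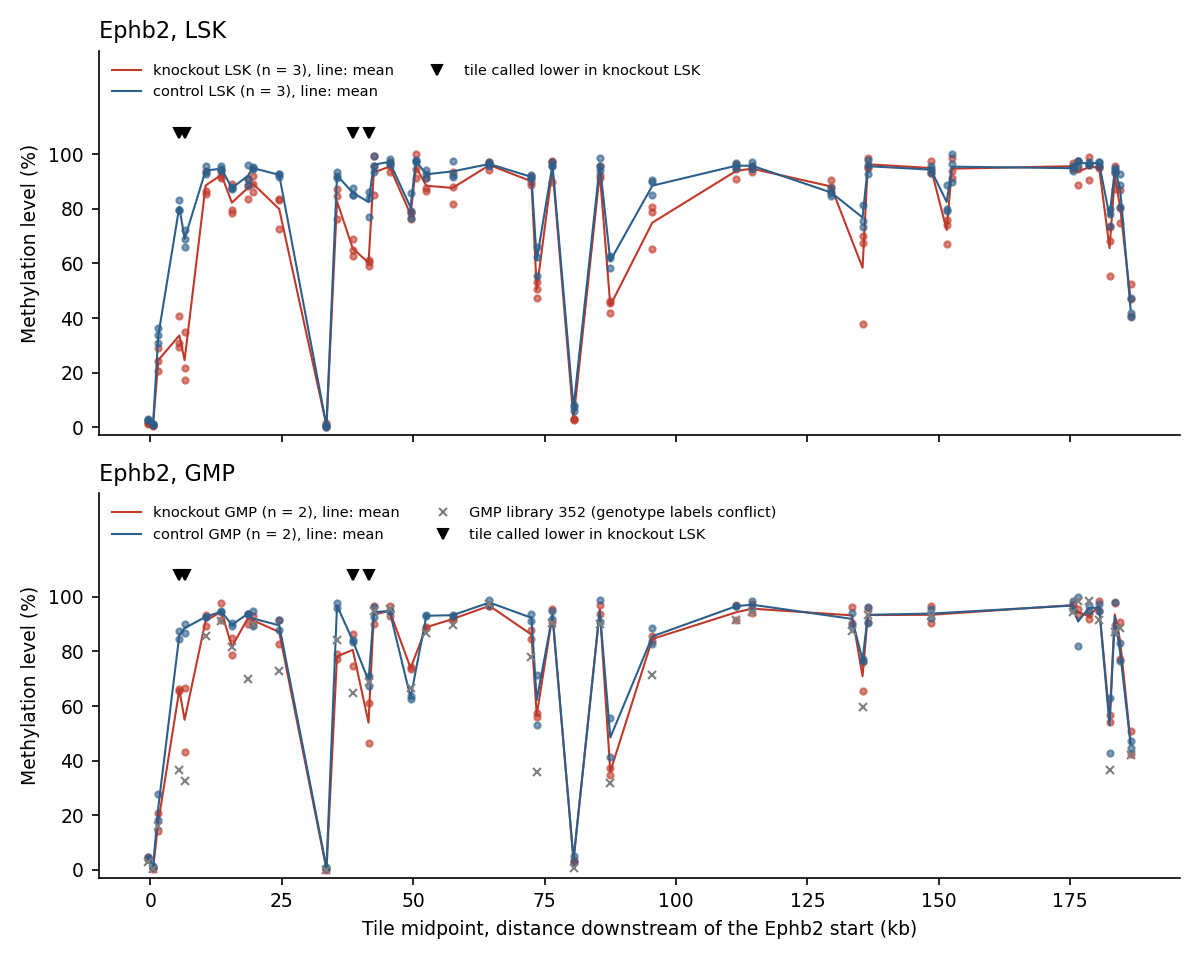
Methylation level of Ephb2 tiles (%) against distance of the tile midpoint from the gene start (kb), for LSK (top) and GMP (bottom). Points are libraries, lines join group means (knockout red, control blue), crosses are library 352, and triangles mark the 4 tiles called lower in knockout LSK. The tiles at 5.51 and 6.51 kb average 33.6 and 24.6% in knockout LSK, against 80.8 and 69.0% in control LSK.

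The remaining pair of called Ephb2 tiles lay deeper in the gene and had smaller differences. In the tile at 136797001 (38.51 kb), levels were 68.8, 62.6 and 65.0% in knockout LSK, against 85.1, 85.0 and 87.7% in control LSK. Its difference of -20.8 points was the member value just inside the threshold. Knockout means were lower at every position of this tile, but single libraries varied more than the tile levels. At 136797910 the knockout LSK libraries had 90.5, 34.2 and 72.7%, and at 136797926 library 1327 (82.8%) was above each control. In the tile at 136794001 (41.51 kb), levels were 60.5, 59.2 and 61.2% in knockout LSK, against 84.1, 77.2 and 86.2% in control LSK, a difference of -21.7 points. The call of the first was lost without library 1333 (-19.0 points) or 1331 (-19.8 points), and that of the second without 1334 (-22.2 points), 1326 (-21.0 points), 1330 (-24.8 points) or 1331 (-20.1 points). Neither tile had a called difference in GMP. The first had 74.7 and 86.5% in knockout GMP, against 83.6 and 84.3% in control GMP, a difference of -0.424 points (adjusted p = 0.993), and 2.57 points without library 178. That library had only 12 to 16 reads at each position of the first tile. The second had 46.6 and 61.2% in knockout GMP, against 67.5 and 71.1% in control GMP, a difference of -15.4 points (adjusted p = 0.609). Its GMP groups did not overlap, as at 25.9% of all GMP tiles on the lower side. Just outside the threshold, the tile at 136748001 (87.51 kb) had 46.2, 45.5 and 42.0% in knockout LSK, against 62.0, 58.3 and 62.7% in control LSK, a difference of -16.2 points.

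Measured tiles next to the called ones had smaller LSK differences. The tile at 136834001, 1.51 kb from the start, averaged 24.6 ± 4.34% in knockout LSK and 33.7 ± 2.77% in control LSK, a difference of -8.90 points. The tile at 136825001 (10.51 kb) averaged 88.6 ± 4.54% in knockout LSK and 94.1 ± 1.66% in control LSK. The tile at 136800001 (35.51 kb), which also overlaps the gene model Gm52708, averaged 82.8 ± 5.69% in knockout LSK and 92.3 ± 1.15% in control LSK (SD, n = 3 each). That tile had 79.0 and 77.4% in knockout GMP, against 97.8 and 95.9% in control GMP, a difference of -18.5 points. Its adjusted p was 0.567, and 0.00829 with the intermediate-level prior, where the difference stayed under 20 points (3.1e-36 to 0.836 over the alternatives). The tile at 136793001 (42.51 kb) averaged 93.4 ± 7.44% in knockout LSK and 96.2 ± 2.89% in control LSK, and its groups overlapped.

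Over all of Ephb2, 39 of 45 LSK tiles had a negative difference, with a median of -2.80 points, and in 17 every knockout library lay below every control. Over all LSK tiles 61.7% were negative and 15% did not overlap on the lower side, and the 45 tiles include the 4 that chose the gene. In GMP, 30 of 42 tiles were negative (60.9% of all tiles), with a median of -1.17 points, and 14 did not overlap on the lower side (25.9% of all tiles). The gene body (over 1 kb from both ends) averaged 56.0 ± 3.09% in knockout LSK and 62.1 ± 1.11% in control LSK (SD, n = 3 each). It had 59.0 and 59.6% in knockout GMP, against 64.8 and 63.1% in control GMP, a difference of -4.57 points (adjusted p = 0.239). The window 1 kb either side of the start had 0.982, 0.973 and 0.844% in knockout LSK, against 1.27, 1.59 and 1.60% in control LSK. It had 1.24 and 1.58% in knockout GMP, against 1.79 and 2.12% in control GMP. The start therefore stayed under 3% in each of these libraries while the called tiles lay inside the gene.

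**Figure D2:**
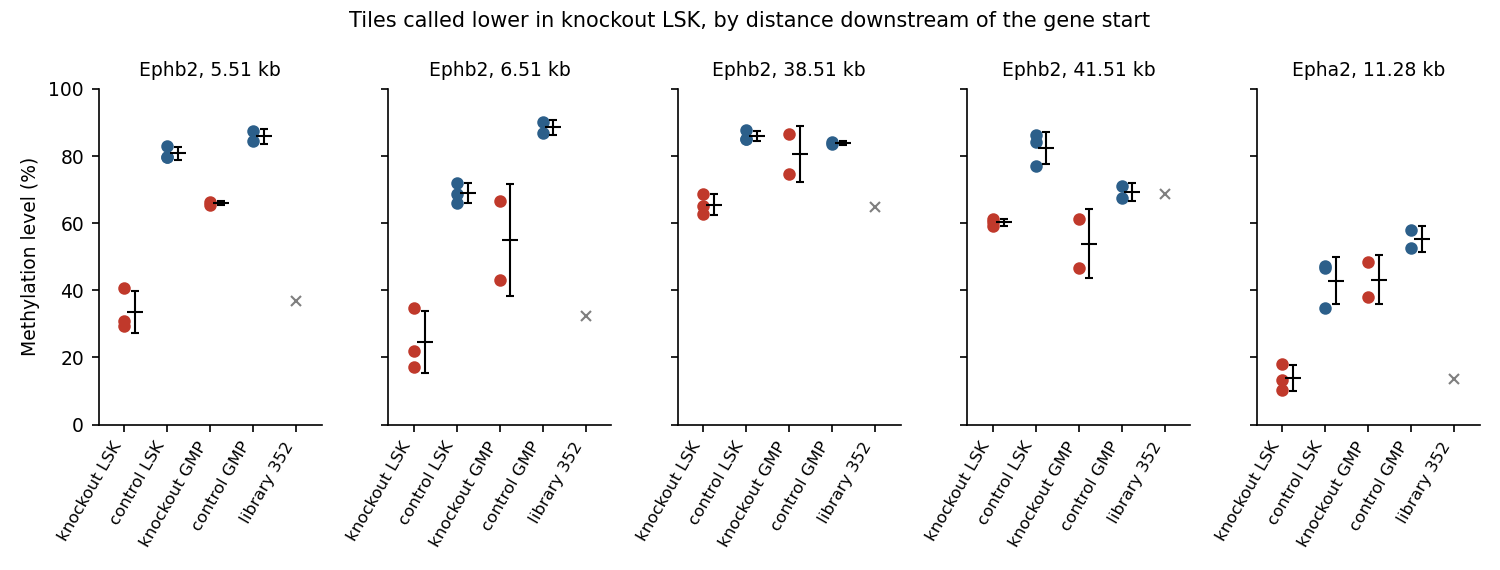
Methylation level (%) of the 5 member tiles called lower in knockout LSK, 4 in Ephb2 and 1 in Epha2, titled by gene and distance of the tile midpoint from the start. Dots are libraries, black marks are group means with SD, and the cross is library 352. Every knockout LSK library lies below every control in the 5 tiles, which this contrast picked, so nothing is read from that. In each tile but the Ephb2 tile at 38.51 kb, both knockout GMP libraries also lie below both controls, which held at 25.9% of all GMP tiles.

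Gene bodies whose level was most like that of Ephb2 were found by the root mean square difference over the 10 libraries, among 6760 bodies with at least 20 common positions. They were Cachd1 (1.76 points), Ckm (1.83 points), Tead1 (2.26 points), Usp6nl (2.64 points) and Kazn (2.68 points). The Cachd1 body averaged 56.2 ± 2.80% in knockout LSK and 60.2 ± 1.39% in control LSK. Likeness over 10 libraries follows the average level as well as any difference between groups.

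The other class B receptors had no tile called by the main test in any of the 3 comparisons. Over all tiles, 0.871% were called lower in LSK, 0% in GMP, and 0.772% lower and 0.113% higher between control cells. Ephb1, which guides retinal axons at the optic chiasm, lies on chromosome 9 from 101922128 to 102354693 on the minus strand. Its 24 LSK tiles had a median difference of -0.637 points and ranged from -15.4 to 3.11. The lowest, at 101967001, had 72.4, 69.4 and 83.6% in knockout LSK, against 98.8, 77.8 and 95.7% in control LSK, and the groups overlapped. In GMP the median over 25 tiles was 0.209 points. The Ephb1 tile at 102274001, named after its values were seen, had 75.3 and 61.1% in knockout GMP, against 43.0 and 45.8% in control GMP. Its difference of 23.8 points did not pass the test (adjusted p = 0.567), and library 352 was at 63.2%. An exact Fisher test, which ignores the spread between libraries, called this tile higher. In LSK the same tile averaged 55.2 ± 4.04% in knockout and 52.3 ± 1.61% in control (SD, n = 3 each).

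Ephb3, a close partner of Ephb2 in sorting cells of the gut crypt, lies on chromosome 16 from 21204620 to 21223309 on the plus strand, and its start was the most methylated of the 8. The window around the start had 13.2, 10.9 and 10.5% in knockout LSK, against 12.1, 12.7 and 10.3% in control LSK, and the groups overlapped. It had 14.9 and 16.0% in knockout GMP, against 18.6 and 18.7% in control GMP, a difference of -3.20 points (adjusted p = 0.566). The promoter printed above averaged 1.57 ± 0.330% in knockout GMP and 9.21 ± 0.609% in control GMP (SD, n = 2 each), over the 9 positions listed in all 10 libraries, and this smaller window was not tested. It averaged 2.55 ± 1.06% in knockout LSK and 4.40 ± 0.649% in control LSK (SD, n = 3 each). The tile holding the start, at 21204001, averaged 11.5 ± 0.460% in knockout LSK and 12.6 ± 1.05% in control LSK. The next tile, at 21205001, averaged 5.48 ± 1.02% in knockout LSK and 7.87 ± 0.530% in control LSK, the largest LSK difference of this gene at -2.39 points.

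Ephb4, the receptor for ephrin-B2 that marks veins, lies on chromosome 5 from 137350109 to 137374522 on the plus strand. Its start had 0.876, 1.60 and 0.773% in knockout LSK, against 2.37, 3.83 and 2.27% in control LSK, over 12 positions. It had 3.01 and 2.49% in knockout GMP, against 5.19 and 4.46% in control GMP (adjusted p = 0.583). The knockout libraries were below the controls in both cell types, at levels of at most 5.19%. Such an order held at 15% of all LSK tiles and 25.9% of all GMP tiles, and its share over starts was not computed. Its body was highly methylated, at 95.5 ± 0.550% in knockout LSK and 95.5 ± 0.626% in control LSK. The tile at 137373001 averaged 87.5 ± 1.63% in knockout GMP and 93.9 ± 0.723% in control GMP, a difference of -6.45 points (adjusted p = 0.572).

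Ephb6, a family member without kinase activity, lies on chromosome 6 from 41603834 to 41620509 on the plus strand. Its start was at 0.0225 to 0.558% in all 11 libraries. Its annotated span begins before this start, so the body window, set from the ends of the span, holds the start too, and 58 of its 70 LSK positions are those of the start tile at 41605001. Over that window levels were 10.8 ± 1.62% in knockout LSK and 10.7 ± 2.39% in control LSK (SD, n = 3 each). The 3 tiles away from the start averaged 92.2 to 97.5% in knockout LSK and 95.1 to 97.0% in control LSK. In GMP the body window averaged 14.6 ± 1.86% in knockout and 15.4 ± 0.758% in control (SD, n = 2 each, adjusted p = 0.855). The 4 LSK tiles of Ephb6 ranged from -3.06 to 0.708 points, and the tile at 41615001 had the lowest, with 92.2 ± 2.79% in knockout LSK and 95.1 ± 1.99% in control LSK.

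Among the class A receptors, Epha2 held the only tile called lower in knockout LSK. Epha2, which binds ephrin-A1 and acts in epithelial cell contact, lies on chromosome 4 from 141301221 to 141329384 on the plus strand. The tile at 141312001 to 141313000, 11.28 kb downstream of the start, had 17.9, 10.4 and 13.2% in knockout LSK, against 47.3, 34.7 and 46.7% in control LSK. The averages were 13.8 ± 3.79% in knockout LSK and 42.9 ± 7.08% in control LSK (SD, n = 3 each), a difference of -29.5 points. In GMP it had 38.0 and 48.4% in knockout, against 52.5 and 58.0% in control, a difference of -12.0 points (adjusted p = 0.582, and 1.61e-11 to 0.836 over the alternatives). Without library 178 it was -7.02 points. No knockout LSK library overlapped a control LSK library, in a tile picked out by this contrast. Both knockout GMP libraries lay below both controls, as at 25.9% of all GMP tiles. Library 352 was at 13.5%.

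The Epha2 tile held 10 C positions between 141312435 and 141312705, with 39 to 268 reads each in LSK. Position means ranged from 6.57 to 32.5% in knockout LSK and from 26.5 to 71.3% in control LSK, and at 10 of 10 positions every knockout library was below every control (5.16% of all positions), in a tile picked out by this contrast. In GMP the position means ranged from 30.3 to 59.7% in knockout and from 37.8 to 95.1% in control, and at 5 of 10 positions both knockout libraries were below both controls (9.79% of all positions). Over all 12 LSK tiles of Epha2, 5 were negative and the median was 0.107 points. The start was at 0.343 to 1.17% in all 11 libraries.

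Epha4, which binds ephrins of both classes and acts in axon guidance, lies on chromosome 1 from 77367182 to 77515107 on the minus strand. Its 12 LSK tiles ranged from -6.88 points, in the tile at 77507001 with 91.1 ± 3.27% in knockout and 97.1 ± 1.64% in control (SD, n = 3 each), to 4.82 points. In GMP its tiles had both the highest and the lowest difference of the 8 genes. The tile at 77370001, 144.59 kb downstream of the start, had 83.7 and 83.7% in knockout GMP, against 56.0 and 54.0% in control GMP. Its difference of 28.9 points did not pass the test (adjusted p = 0.567), and it was called higher with the intermediate-level prior (adjusted p = 0.0210; 1.48e-23 to 0.836 over the alternatives). In LSK the same tile averaged 91.0 ± 0.855% in knockout and 89.4 ± 1.24% in control. Library 352 was at 79.2%.

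The Epha4 tile at 77512001, named after its values were seen, had 12.2 and 20.4% in knockout GMP, against 56.7 and 43.8% in control GMP. Its difference of -34.3 points rests on 3 positions with a mean coverage of 16.5 reads (adjusted p = 0.567). Epha4 was the only one of the 8 genes inside a 5-Mb window with many positions listed in one GMP genotype alone. That window held 62 such positions among 2988, of which 11 lay at Epha4, and 28 windows of the genome were of this kind in GMP and 3 in LSK. The part of these positions in the Epha4 differences was not tested.

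Epha8, known from axon guidance in the midbrain, lies on chromosome 4 from 136929419 to 136956859 on the minus strand, next to Ephb2. Its LSK tiles had a median difference of 0.713 points, with 3 of 11 negative and a range of -3.30 to 5.54. The tile at 136947001 with the largest of these had 71.3, 86.7 and 94.2% in knockout LSK, against 75.3, 82.8 and 75.9% in control LSK. Its start, with 50 of 56 CpG sites listed in the promoter window, averaged 2.23 ± 0.0659% in knockout LSK and 1.88 ± 0.254% in control LSK. In GMP the start averaged 2.41 ± 0.137% in knockout and 2.97 ± 0.235% in control (SD, n = 2 each, adjusted p = 0.600).

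**Figure D3:**
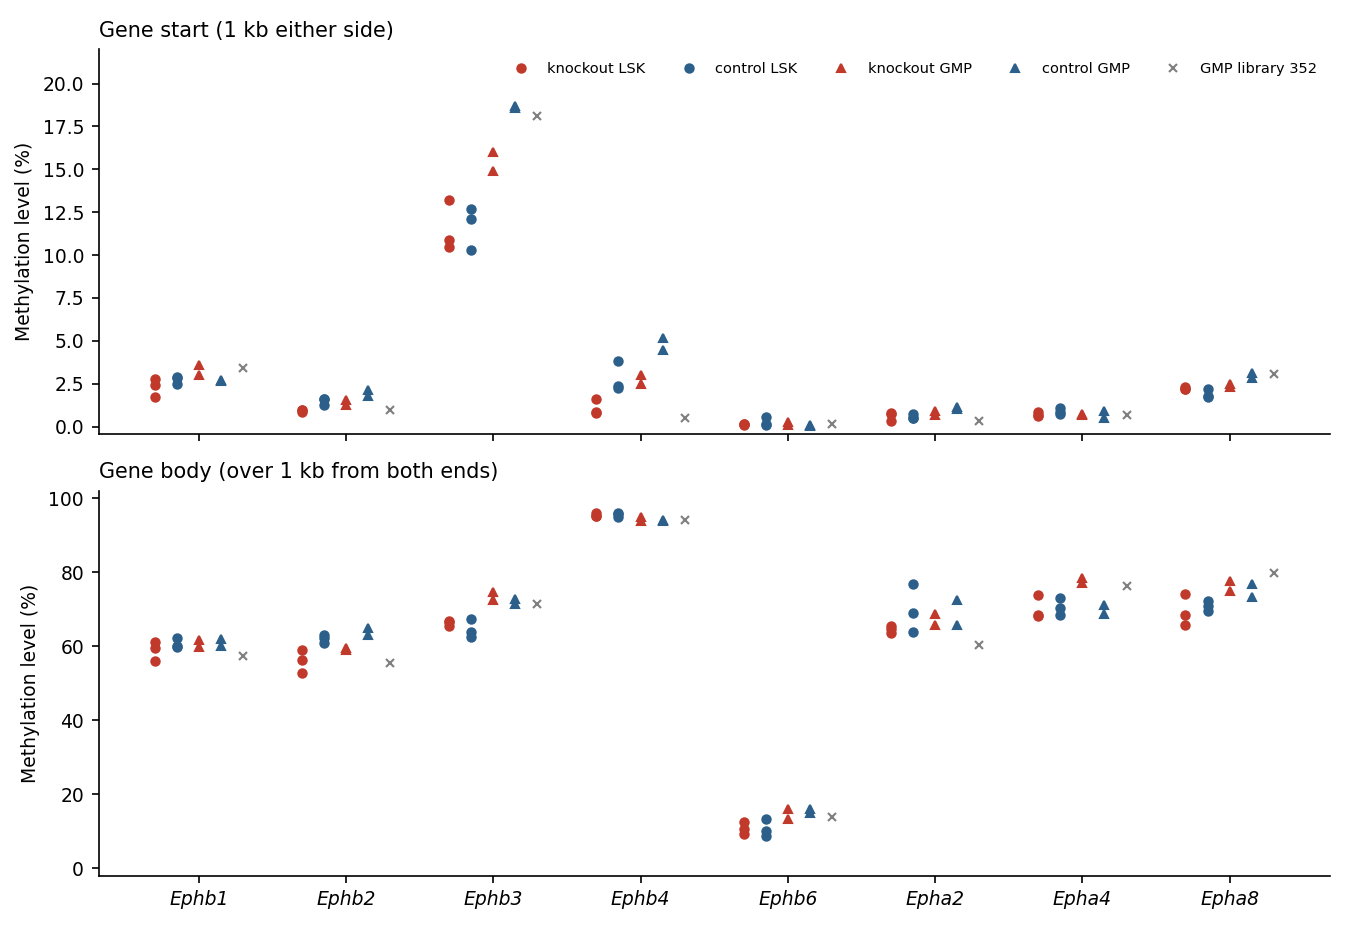
Methylation level (%) of the start window (top) and the body (bottom) of the 8 genes. Each point is a library, coloured by genotype (knockout red, control blue), with circles for LSK, triangles for GMP and a cross for library 352. Apart from Ephb3, no start exceeds 5.19%, and the Ephb4 body averages 95.5% in control LSK. The Ephb6 body window holds the start of the gene, and its 10.7% in control LSK includes those unmethylated positions.

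For starts and bodies a call needed an adjusted p under 0.05 and a difference of at least 10 points. Between knockout and control GMP, 0 of 8 starts were called, as were 0% of all starts, and 1 had an unadjusted p under 0.05. Of the bodies 0 of 8 were called, against 0.0339% of all, and 2 had an unadjusted p under 0.05. These were Ephb2 and Epha4, whose body averaged 77.8 ± 0.936% in knockout GMP and 70.0 ± 1.56% in control GMP, a difference of 7.78 points (adjusted p = 0.221). In LSK 0 of 8 bodies were called lower, against 1.78% of all. GMP differences ran from -3.20 to 0.58 points at the starts and from -4.57 to 7.78 at the bodies. In LSK the bodies ran from -5.90 to 1.57 points. All were under 10 points, so the size rule alone fixed these counts at 0, by Fisher's exact test too. The share of all starts and bodies with an unadjusted p under 0.05 was not computed.

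Across the 8 genes in GMP, 0 of 122 tiles were called, as were 0% of all 107150 tiles. That count depends on the prior, since 295 of all tiles were called with the intermediate-level prior, and it does not show that levels were unchanged. At an unadjusted p under 0.05 there were 16 member tiles, against 8.71% of all tiles. Fisher's exact test called 5 of the 122 member tiles, 3 lower and 2 higher, against 888 of all 107150 tiles. Among these 5 were both Ephb2 tiles of the run, which had helped choose the genes. With the intermediate-level prior 2 member tiles were called lower, against 0.248% of all, and 1 was called higher, against 0.0271% of all. Of the 122 tiles 77 were negative (63.1%, against 60.9% of all), with a median of -0.682 points against -0.345 over all tiles. Every knockout library was below every control in 36 tiles, against 25.9% of all tiles, and above in 18, against 11.3% of all. In LSK, 82 of 123 tiles were negative (66.7%, against 61.7% of all), with a median of -0.745 points against -0.373 over all tiles. There 24 tiles did not overlap on the lower side, against 15% of all tiles, and 3 on the higher side, against 3.38%. The LSK contrast chose the genes, and Ephb2 alone gave 39 of the 82 negative tiles and 17 of the 24. Nothing is read from these LSK totals for the family.

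Partly methylated tiles had the largest median difference in LSK, where the member tiles include the 4 Ephb2 tiles that chose the genes. Grouped by their level in control GMP, the 24 member tiles under 20% had a median LSK difference of -0.226 points (-0.0439 in all tiles), the 20 tiles between 20 and 80% had -5.32 (-3.98 in all tiles), and the 72 tiles above 80% had -1.24 (-0.609 in all tiles). In GMP the largest member median was in the tiles above 80%. Grouped by their level in control LSK, the 24 tiles under 20% had a median GMP difference of -0.200 points (-0.0429 in all tiles), the 17 between 20 and 80% had -0.404 (-2.75 in all tiles), and the 75 above 80% had -1.29 (-0.853 in all tiles).

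**Figure D4:**
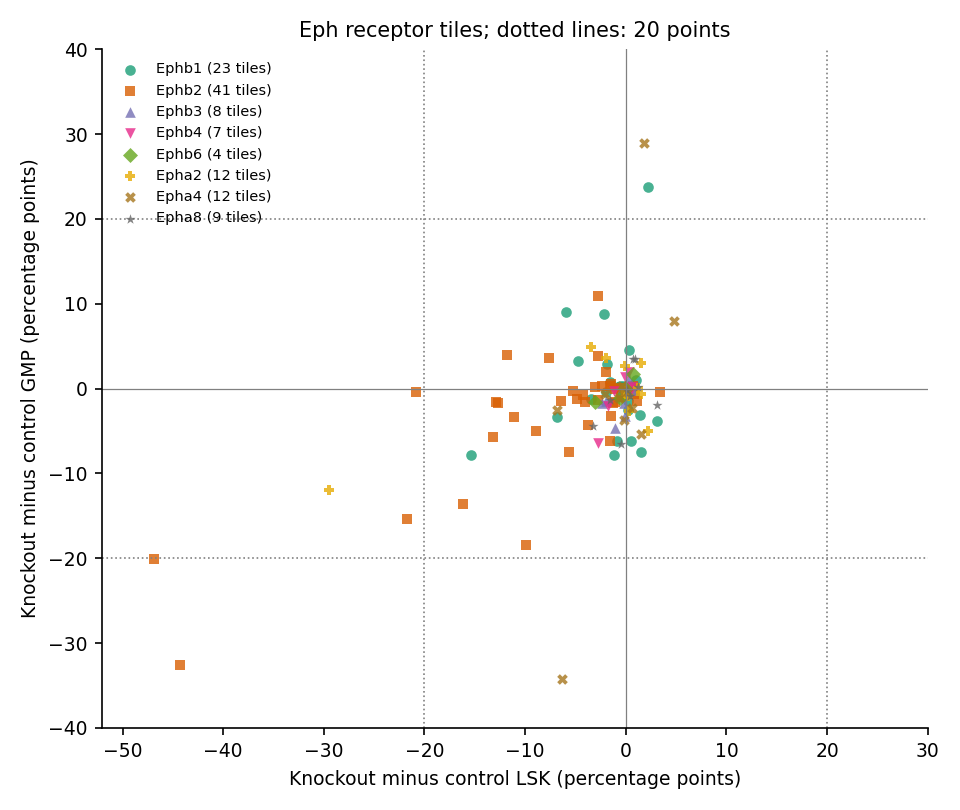
Knockout minus control difference in GMP (vertical, percentage points) against that in LSK (horizontal) for the Eph receptor tiles measured in both, 1 point per tile with a marker per gene. Dotted lines mark 20 points. The 2 Ephb2 tiles of the run near the start lie at the lower left (-46.9 and -20.1, -44.3 and -32.6). The Epha4 tiles at 28.9 and -34.3 in GMP had LSK differences of 1.85 and -6.36 points.

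Control GMP and control LSK were compared to see how the genes differ between the cell types without the deletion. These control libraries also serve the knockout comparisons. Of 122 tiles 3 were called lower in control GMP, against 0.772% of all 104839 tiles, and 0 were called higher, against 0.113% of all. For the 4 Ephb2 tiles that chose the genes, control levels are given without a test. The Epha4 tile at 77370001 had 56.0 and 54.0% in control GMP, against 90.6, 89.5 and 88.1% in control LSK, a difference of -34.4 points (adjusted p = 0.00223). The Epha4 tile at 77412001 (102.59 kb) had 6.11 and 2.16% in control GMP, against 33.3, 37.1 and 35.1% in control LSK, a difference of -31.1 points (adjusted p = 0.00395). Knockout GMP had 83.7 and 83.7% in the Epha4 tile at 77370001, and 20.5 and 5.49% in that at 77412001. Epha4 lies inside the 5-Mb window with many positions listed in one GMP genotype alone. The part of such positions in these Epha4 calls was not tested. The Epha2 tile at 141326001 (25.28 kb) had 59.1 and 58.9% in control GMP, against 83.4, 77.3 and 85.5% in control LSK, a difference of -22.7 points (adjusted p = 0.0377).

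The first of these calls was lost with unweighted means over positions (adjusted p = 0.0901). In the 3 tiles no control GMP library overlapped a control LSK library, but this contrast picked the tiles, so that is no further support. Both control GMP libraries list many Y-chromosome positions, as does control LSK library 1326 (90.6, 33.3 and 83.4% in these tiles). The differences were present against that library alone, and the part of the Y-chromosome listing in them was not tested. The call of the Epha2 tile was lost whenever any 1 library was left out (adjusted p of 0.104 to 0.210), with unweighted means (adjusted p = 0.0657) and with the spread from all 4 groups (adjusted p = 0.0508), and that of the second Epha4 tile without 349, 1330 or 1331 (adjusted p of 0.0530 to 0.0550). At the Ephb2 run, the first tile had 90.2 and 86.9% in control GMP, against 66.0, 68.8 and 72.1% in control LSK, and the second had 87.5 and 84.4% in control GMP, against 79.7, 79.6 and 83.1% in control LSK.

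No start or body of the 8 genes was called between the control cells, against 0.199% of all starts and 3.7% of all bodies. At an unadjusted p under 0.05 there were 3 starts and 3 bodies, and the share over all starts and bodies was not computed. Differences ran from -0.204 to 6.55 points at the starts and from -2.69 to 6.80 at the bodies. All were under the 10 points that a call needs, so the size rule alone fixed the counts of calls at 0. An exact Fisher test of the pooled reads also called 0 of either, and under the same rule it could not have called any. The Ephb3 start had the largest difference, with a mean of 18.7 ± 0.0289% in control GMP (n = 2) and 11.7 ± 1.27% in control LSK (n = 3), a pooled difference of 6.55 points (adjusted p = 0.0635). The Ephb3 body differed by 6.80 points (adjusted p = 0.0887), with 72.0 ± 1.02% in control GMP and 64.6 ± 2.50% in control LSK.

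**Figure D5:**
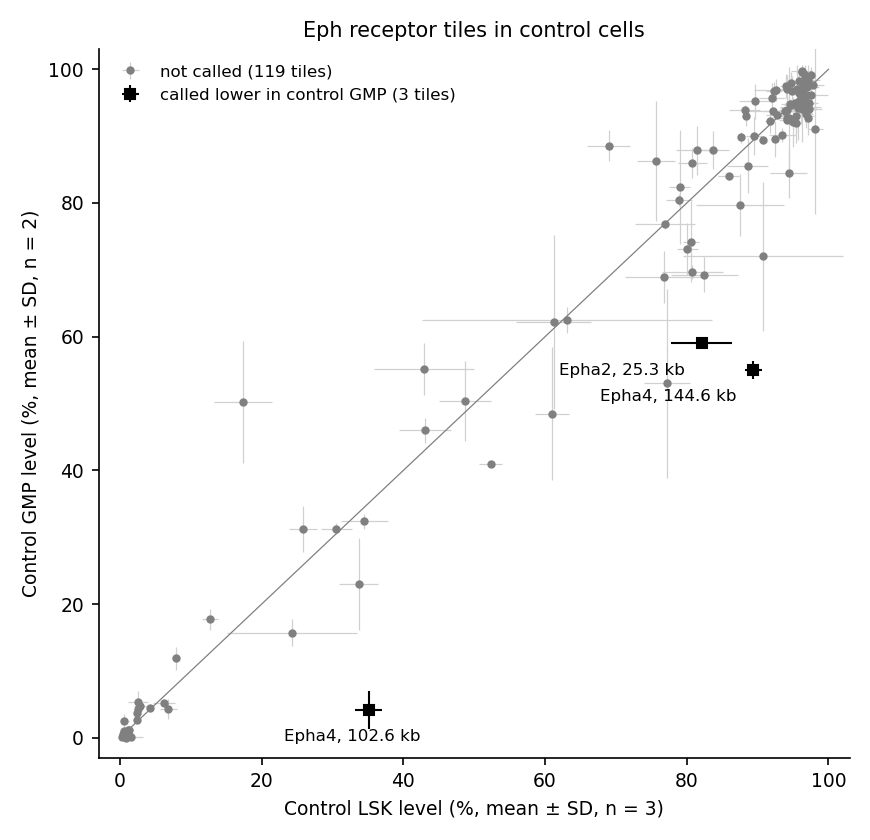
Level of Eph receptor tiles in control GMP (vertical, %, mean ± SD, n = 2) against control LSK (horizontal, %, mean ± SD, n = 3). The line marks equal levels, and squares are the 3 tiles called lower in control GMP, 2 in Epha4 and 1 in Epha2.

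Genes that work with these receptors were read from the same fits. Of the 6 other Eph receptors (Epha1, Epha3, Epha5, Epha6, Epha7 and Epha10) no feature was called in any comparison. Calls were rare over all tiles too, at 0.871% lower in LSK and 0% in GMP. Between control cells they were 0.772% lower and 0.113% higher. Their 36 GMP tiles had a median of -1.10 points, with 3 at an unadjusted p under 0.05 (8.71% of all tiles), and Fisher's exact test called 0. Of the 8 ephrin genes, 0 of 44 tiles were called in GMP (median -0.146 points, 2 at an unadjusted p under 0.05, 0 by Fisher's exact test), and 1 of 45 was called lower in LSK (0.871% of all tiles). That tile lies at Efna3, chromosome 3 from 89314001, with 44.3, 30.3 and 38.9% in knockout LSK, against 59.4, 68.4 and 59.6% in control LSK. Between control cells, 1 of 43 ephrin tiles was called lower in GMP (0.772% of all tiles). It lies at Efna5, chromosome 17 from 62623001, with 19.4 and 19.6% in control GMP, against 78.0, 85.0 and 82.7% in control LSK, a difference of -62.0 points (adjusted p = 0.00116).

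Of 18 signalling partners, 4 of 248 tiles were called lower in LSK (0.871% of all tiles) and 0 of 252 in GMP (median -0.349 points, 2 by Fisher's exact test). In GMP 23 of the 252 had an unadjusted p under 0.05, close to the 8.71% of all tiles. The LSK tiles lay at Rgs3, a regulator of G protein signalling that binds ephrin-B (2 tiles), at Fyn, a Src family kinase, and at Tiam1, an exchange factor for Rac. The Fyn tile, chromosome 10 from 39471001, had 30.5, 34.9 and 35.2% in knockout LSK, against 57.7, 66.3 and 55.6% in control LSK. The Tiam1 tile, chromosome 16 from 89974001, had 12.8, 21.6 and 9.15% in knockout LSK, against 35.6, 40.8 and 29.1% in control LSK. The Rgs3 tile at 62607001 of chromosome 4 had 36.6, 42.7 and 37.8% in knockout LSK, against 55.5, 62.5 and 57.1% in control LSK. Between control cells, 1 of 245 partner tiles was called lower in GMP (0.772% of all tiles). It is another Tiam1 tile, from 90137001, with 46.0 and 32.0% in control GMP, against 90.9, 89.3 and 90.4% in control LSK, a difference of -52.1 points (adjusted p = 0.00116). Of 14 partner bodies 1 was called, higher in GMP (3.7% of all bodies were called in either direction). That body, of Vav3, averaged 71.9 ± 2.04% in control GMP (n = 2) and 56.0 ± 5.37% in control LSK (n = 3), a difference of 15.7 points (adjusted p = 0.0313).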

How the data were processed

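Libraries were made from MspI fragments of 150 to 400 bp and read as single ends of 50 bp, per the labels' protocols. The deposited tables give coverage as a read count at each C position, and C and T shares in percent, per the file headers. All listed positions had at least 10 reads. The submitters' processing notes name Bismark, mm10 and GRCm38, and versions are not given in the sources used here. Coverage times the deposited percent gave whole numbers of methylated and unmethylated reads at each position. Median coverage per position was 85 to 103 reads in LSK and 50 to 59 in GMP, without molecular identifiers.

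Groups came from titles and genotype entries. Nothing in the labels ties libraries to separate animals, so a p-value speaks only to the spread among the libraries at hand. Gene spans and starts came from RefSeq tables of GRCm38.p6, where all 8 genes matched by symbol. LSK levels use positions listed in all 6 LSK libraries, GMP levels those in all 4 assigned GMP libraries, and control GMP against control LSK those in the 5 control libraries. Reads of each region were fitted by a quasi-binomial logistic model with an F test. Its dispersion was squeezed with limma 3.58.1 in R 4.3.3 towards a trend over log coverage, with a floor of 1, and p-values were adjusted over all regions of a kind (Benjamini-Hochberg). This gave 1.919 prior degrees of freedom for GMP tiles and 5.213 for LSK tiles. The fit was also run on simulated reads that gave all tiles the same spread between libraries. The spread varies between the real tiles, so that run does not show how the test performs on them. Body windows run from 1 kb inside each end of the annotated span, which at Ephb6 leaves the start inside the window. Alternatives were the intermediate-level prior (known from earlier work on these data to give GMP calls), a coverage minimum of 20, positions in all 10 libraries, unweighted means, Fisher's exact test, a spread from all 4 groups, other tiles and windows, and leaving out each library.

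The genes and the lists were chosen with earlier results of these data known. Named tiles were those called, those holding a start, those with the largest LSK difference in each gene, neighbours of called Ephb2 tiles and the values nearest the 20-point threshold. Genes most like Ephb2 were the 5 with the smallest difference in body level. A 5-Mb window was genotype-specific if it held at least 10 positions (and at least 1% of its shared ones) covered by 20 or more reads in each library of a genotype while no library of the other listed them.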

Additional observations from a re-analysis of the deposited data

How the results depend on the processing

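The count of Eph receptor tiles called between knockout and control GMP was 0, and it was 3 with the intermediate-level prior, 5 by Fisher's exact test and 1 with the spread from all 4 groups. Over all tiles those settings called 266, 783 and 85 lower and 29, 105 and 10 higher. Between control GMP and control LSK the count was 3, against 5 with the intermediate-level prior, 1 with unweighted means, 5 by Fisher's exact test and 1 to 2 with 1 library left out. Between knockout and control LSK it was 5, against 3 to 5 with 1 library left out, 4 with tiles shifted by 500 bp (another Ephb2 stretch was called and that at 136794001 was not), 6 with tiles of 500 bp, and 4 with the intermediate-level prior without library 1333, chosen after seeing the data. The cause of these changes was not tested. For the starts and bodies the count was 0 under every alternative run. Their main differences were all under the 10 points that a call needs, so this 0 is no support from those tests. Over all GMP bodies the calls were 3 lower and 2 higher in the main test and 112 lower and 10 higher with the intermediate-level prior. Of 1371 alternative values for the 119 named differences, 11 lost their call in a test, 7 gained one and 5 without a test moved by more than 1 SD. In LSK, where no test is printed, 7 more values fell short of a call while staying within 1 SD, at the Ephb2 tiles at 136794001 (4) and 136797001 (3). A further 48, for 30 differences of at most 7.87 points, turned sign, and 0 of them were called in the main test or under the alternative. The other 1293 kept their direction and their call, or stayed within 1 SD. Between knockout and control GMP, leaving out 1 library gave -4.13 to 2.43 points for the Ephb2 tile at 136793001, -9.26 to 2.57 for that at 136797001, -3.36 to 0.521 for that at 136825001 and -0.51 to 0.251 for that at 136836001. It gave -4.41 to 0.458 for the Ephb3 tile at 21205001, -4.2 to 0.867 for the Ephb6 tile at 41615001, -4.47 to 1.48 for the Epha4 tile at 77507001, -15.4 to 0.407 for the Ephb1 tile at 101967001 and -10.9 to 1.89 for the Epha2 tile at 141326001. For bodies it gave -1.24 to 0.686 for Ephb1, -0.0606 to 1.07 for Ephb4, -2.14 to 0.494 for Ephb6, -5.09 to 1.6 for Epha2 and -0.567 to 2.65 for Epha8, and for the Epha4 start -0.215 to 0.175. A coverage minimum of 20 gave 0.0365 for the Ephb2 tile at 136836001 and 0.00767 for the Epha4 start. Unweighted means gave 0.121 for the Epha2 tile at 141301001, 0.0394 for the Epha2 start, and -2.05 and -1.46 for the bodies of Ephb3 and Epha8, and windows of 2000 bp at gene ends gave 0.0396 for the Ephb1 body. Between control GMP and control LSK, leaving out 1 library gave -0.102 to 0.437 points for the Ephb1 tile at 102354001, -3.99 to 0.168 for the Ephb2 tile at 136793001 and -0.25 to 2.92 for the Epha4 tile at 77507001. It gave -0.149 to 0.0071 for the Ephb1 start, and -1.05 to 0.598 for the Ephb1 body and -3.96 to 3.22 for the Epha2 body. Unweighted means gave -1.02 for the Ephb2 tile at 136836001, -0.252 for the Ephb2 start, and -1.83 and -0.152 for the bodies of Ephb2 and Ephb6. Windows of 2000 bp gave -1.23, 0.186, -0.366 and 0.0101 for the starts of Ephb2, Ephb1, Ephb4 and Epha4, and 1.52, -1.45 and -0.342 for the bodies of Ephb1, Ephb2 and Ephb6. The Ephb1 body was 0.122 over positions listed in all 10 libraries and with the spread from all 4 groups. No paired analysis was possible because the library numbers are not shared between groups. With 2 libraries a group, GMP differences rest on 2 residual degrees of freedom.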
